A study of Caenorhabditis elegans with 36 samples.

Results

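The genes described here were the protein-coding genes of the Caenorhabditis elegans X chromosome that carry no gene name other than the name of the sequenced clone and a number, such as F38B6.3. They were taken from the Ensembl annotation of WBcel235 as the genes on X whose symbol starts with a capital letter and that reached 10 counts or more in 6 or more of the 36 libraries. This rule kept 1063 of the 1315 sequence-named coding genes of X, and 252 fell below it. The table held 46093 genes in all, of which 17457 passed the same count rule, and X held 2659 coding genes with and without a given name. Of the 1063 genes, 716 had at least 10 counts in every library, and 2 reached that count in libraries of a single group, in both cases the libraries labelled glp-1. The same rule applied to chromosomes II to V gave 4988 sequence-named coding genes, which served as the comparison. Most of these genes have no assigned role, so a role is stated below only where one is well known.

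The 36 libraries came from polyA RNA of whole worms and fell into 6 groups of 6 by their labels. WT20 was the wild-type strain N2 labelled 20 °C, and the mutants eat-2, ife-2 and osm-5 carried the same temperature. WT25 was N2 labelled 25 °C, and glp-1 was the mutant labelled with that temperature. The alleles given for these strains were eat-2(ad1116), ife-2(ok306), osm-5(p813) and glp-1(e2141), and all groups were young adults grown on nematode growth medium with OP50 bacteria. The labels gave a growth temperature of 20 °C for all groups in one field and 25 °C for WT25 and glp-1 in another, and did not say when worms were moved. eat-2 encodes an acetylcholine receptor subunit of the pharynx, ife-2 a translation initiation factor 4E, osm-5 a protein of cilium assembly, and glp-1 a Notch receptor that keeps germ line stem cells dividing. Each mutant was compared with the wild type of its labelled temperature, and WT25 was compared with WT20. Nothing in the labels said that the 6 libraries of a group came from separate cultures, so the p-values below measure the spread between these libraries, which may be technical.

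The X chromosome of C. elegans is handled differently in the germ line and in the soma. In germ cells it is largely silent during proliferation and early meiosis through histone methylation laid down by the MES proteins, it becomes active late in oogenesis, and genes used by the germ line are scarce on it. In somatic cells of hermaphrodites both X chromosomes are transcribed, and a condensin-like dosage compensation complex lowers transcription from each of them.

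Total counts ran from 35524715 to 55878280 per library. The 30 germ line genes checked had a summed level of 6736 to 9592 counts per 1000000 (CPM, scaled by the TMM method) in WT20 and of 239.9 to 298.0 CPM in the libraries labelled ife-2, whereas the libraries labelled glp-1 held 4612 to 7724 CPM against 5961 to 10416 CPM in WT25. All 30 fell in the libraries labelled ife-2 and 7 fell in those labelled glp-1 by the edgeR test. Among all tested genes, 40.9% and 10.9% fell in these comparisons. With library totals as the only scaling, 4 of the 30 fell and 2 rose in the libraries labelled glp-1, and with upper-quartile scaling 10 fell. The glp-1 transcript had 8.87 ± 1.28 CPM (SD, n = 6) in the group labelled ife-2 and 148 ± 34.7 CPM in the group labelled glp-1. The ife-2 transcript was lowest in the libraries labelled eat-2, at 3.46 ± 0.251 CPM against 23.4 ± 0.837 CPM in WT20, and stood at 65.8 ± 6.85 CPM in those labelled ife-2. The osm-5 transcript had 0.898 ± 0.308 CPM in the group labelled osm-5, 0.983 ± 0.226 CPM in WT25 and 2.92 ± 0.173 CPM in WT20. Because these values go against several labels, each group is called here by its label, and no direction is ascribed to a mutation. Replicate 3 of the libraries labelled osm-5 stood apart. The 5 most abundant X members took 67.2% of its X member counts against at most 25.2% in any library of the other 5 groups, and its library scaling factor was 0.427 where the other osm-5 libraries had 0.989 to 1.06. Its leading members were F23A7.4, F23A7.8 and C45B2.1, transcripts of 207, 204 and 391 bases, which reached 33598, 17947 and 14041 CPM where no other library exceeded 191, 117.2 and 553 CPM, respectively.

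Within each library, the level of a gene was taken as CPM per kilobase of exon, and the median over the X members was divided by the median over the sequence-named genes of II to V. This ratio does not depend on library scaling. In WT20 the median X member stood at 2.71 CPM per kilobase (median of 6 libraries) and the median gene of II to V at 4.72. The log2 ratio was lowest at -0.89, with a median of -0.82 and a highest value of -0.76, in WT20. Under the label ife-2 it was 0.53, 0.59 and 0.63, so that the median X member was above the median gene of II to V in every one of them. In the libraries labelled glp-1 it was -0.65, -0.55 and -0.43, and in WT25 it was -1.01, -0.94 and -0.91. Neither the libraries labelled ife-2 nor those labelled glp-1 overlapped any other group. The ratio was 2.64-fold higher in the libraries labelled ife-2 than in WT20 (0.58 ± 0.04 against -0.82 ± 0.05 on the log2 scale, SD, n = 6 each) and 1.32-fold higher in those labelled glp-1 than in WT25 (-0.55 ± 0.09 against -0.95 ± 0.03). The libraries labelled eat-2 had -0.98, -0.93 and -0.87, and those labelled osm-5 had -1.36, -0.99 and -0.89. Both overlapped WT20. Replicate 3 gave the lowest osm-5 value, and the other 5 libraries lay between -1.06 and -0.89. WT25 lay below WT20 without overlap, by 0.13 on the log2 scale, yet with the mean of log2 levels in place of the median level this difference turned to 0.023. Whole-worm RNA cannot tell fewer cells of a type from less RNA per cell.

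**Figure D1:**
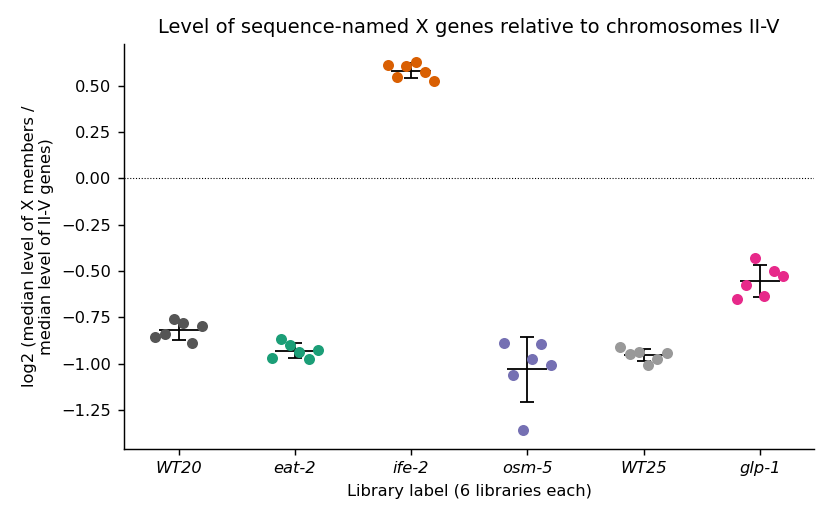
Each point is 1 library, placed by its label on the horizontal axis and by the log2 ratio of the median level of the 1063 X members to that of the 4988 sequence-named genes of II to V on the vertical axis; bars show the mean and SD of 6 libraries. The libraries labelled ife-2 lie between 0.53 and 0.63, those labelled glp-1 between -0.65 and -0.43, and all others at -0.76 or below.

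The rise of the ratio in the libraries labelled ife-2 came with a lower median on II to V. Under TMM scaling it also came with a higher median on X that lay clear of WT20, which was not so with library totals. The median level of the X members was 3.72, 3.79 and 3.93 CPM per kilobase (lowest, median and highest library) against 2.56, 2.71 and 2.84 in WT20. The median level on II to V was 2.41, 2.57 and 2.59 CPM per kilobase against 4.40, 4.72 and 5.27. With TMM scaling the groups did not overlap in either measure. With library totals as the only scaling, the X medians overlapped, at 2.61 to 3.53 against 2.74 to 3.46 CPM per kilobase in WT20, while the II to V medians, at 1.79 to 2.38 against 4.86 to 6.42, did not. The X members held 25.0% to 25.7% of the counts of the X members and the II to V genes together in these libraries and 13.8% to 14.5% in WT20, and in the libraries labelled glp-1 their share was 17.5% to 18.9% against 13.5% to 15.6% in WT25. Set against each chromosome on its own, the log2 ratio of X in the libraries labelled ife-2 had medians of 0.68 to II, 0.04 to III, 0.87 to IV and 0.65 to V, where WT20 had -0.85, -1.57, -0.85 and -0.28. X and III thus stood at nearly the same median level in these libraries, the pair that lay farthest apart in WT20.

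X members were called as rising more often than genes as a whole in the libraries labelled ife-2. Of 996 tested, 722 (72.5%) rose and 99 (9.94%) fell against WT20 at an adjusted p below 0.01 (edgeR quasi-likelihood test), where 44.1% of all tested genes rose and 40.9% fell. On II to V, 40.5% of 4738 sequence-named genes rose and 44.3% fell. The median log2 fold change was 0.95 over the X members and -0.02 over II to V, with medians of -0.14 on II, -0.63 on III, -0.24 on IV and 0.50 on V. The difference between X and V also shows in the spread, since the quartiles of the X members were 0.41 and 1.31 and those of V were -1.39 and 1.16. X genes with a given name behaved alike, with 976 of 1221 rising and 98 falling and a median of 0.94. With library totals as the only scaling, the median of all genes went from 0.17 to -0.35, that of the X members from 0.95 to 0.43, and the share of rises among the called X members from 87.9% to 76.7%. In that fit 493 of the 996 (49.5%) rose and 150 fell, against rises of 26.9% and falls of 47.7% among all genes. The gap between the X and II to V medians was 0.97 with TMM scaling and 0.98 with library totals. It went to between 0.56 and 0.58 when any 1 of the WT20 libraries was left out, with II to V medians of 0.17 to 0.19 and 623 to 641 rises. Those fits tested 947 to 953 X members and 3955 to 3972 genes of II to V, because genes near 0 in the libraries labelled ife-2 could then no longer reach 10 counts in 6 libraries. With 10 counts in 5 libraries asked for instead, an alternative added after these values were seen, the gap was 0.95 to 0.97 and 701 to 714 rose. With WT25 as the control, 708 of 978 rose and 52 fell, where 43.1% of all genes rose and 38.4% fell. The germ line genes whose summed level is given above moved with this result, and their part in it was not tested.

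**Figure D2:**
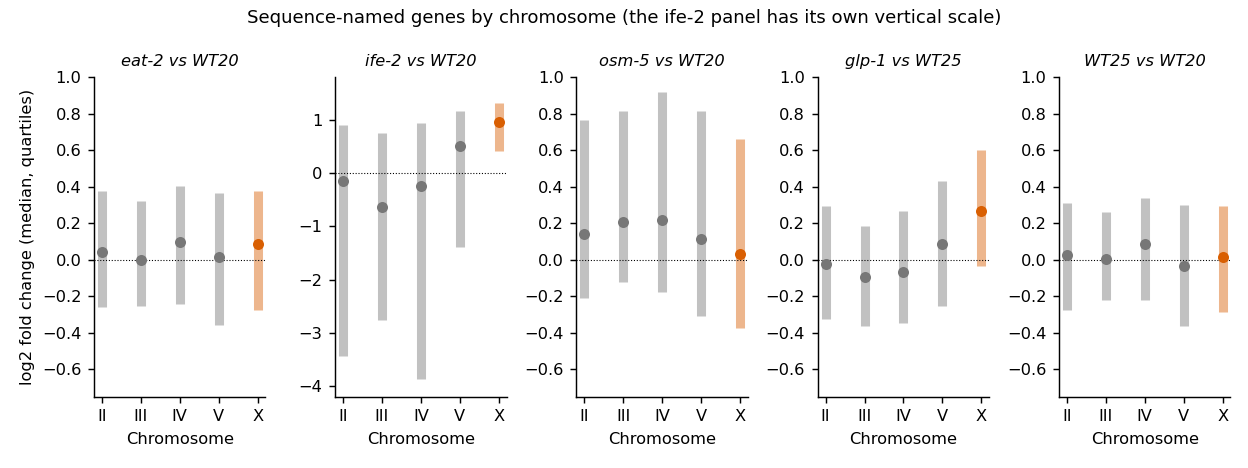
Each panel is 1 comparison; points give the median log2 fold change of the sequence-named genes of a chromosome and bars the lower to upper quartile, with X in orange. The X median is 0.95 in the libraries labelled ife-2 against -0.63 to 0.50 on II to V, and 0.27 in those labelled glp-1 against -0.10 to 0.09.

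The 5 largest rises started from different levels in WT20. F38B6.3 (X:6693631-6695724) had 0.247, 0.325 and 0.432 CPM in WT20 and 8.59, 12.3 and 14.3 CPM in the libraries labelled ife-2, a log2 fold change of 5.30 ± 0.17 (SE, edgeR adjusted p = 8.38e-14). No library of another label exceeded 0.662 CPM. F38B6.6, which lies 3545 bases to its left on the other strand, went from 1.20, 1.91 and 1.97 CPM to 15.6, 29.2 and 31.5 CPM (4.02 ± 0.18, edgeR adjusted p = 5.57e-12). The lowest ife-2 library still lay far above WT20. T22B7.7 (X:5651865-5654074), of the acyl-CoA thioesterase family, went from 14.2, 28.4 and 41 CPM to 360, 610 and 920 CPM (4.63 ± 0.29, edgeR adjusted p = 2.98e-10). This gene also rose in the libraries labelled osm-5, to 102, 136 and 158 CPM (2.38 ± 0.24, edgeR adjusted p = 2.54e-05). Y40C7B.4 (X:17256200-17256787) went from 0.024, 0.123 and 0.295 CPM to 2.40, 3.16 and 3.46 CPM (4.55 ± 0.28, edgeR adjusted p = 3.34e-10). C09B8.4 (X:6018442-6019936) went from 0.524, 1.03 and 1.46 CPM to 7.89, 11 and 11.8 CPM (3.51 ± 0.19, edgeR adjusted p = 5.44e-11). C09B8.4 stood at 7.50 to 11.3 CPM in WT25 as well, so the libraries labelled ife-2 overlapped that wild type while they lay above WT20, and against WT25 the log2 fold change was 0.24 (edgeR adjusted p = 0.0803).

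A smaller set was all but lost. K04C1.5 (X:14248053-14249845) had 1162 to 1772 counts in WT20 (23.4, 30.1 and 35.4 CPM) and 0 to 3 counts in the libraries labelled ife-2, at least 363-fold lower when these are set to a floor of 3 counts per library (edgeR adjusted p = 2.21e-15). E02H4.6 (X:14250512-14252142) follows it after 666 bases on the other strand and went from 6.36, 7.82 and 10.1 CPM to 0 to 2 counts, at least 97.2-fold lower (edgeR adjusted p = 1.75e-13). These neighbours thus shared the loss. Y75D11A.3 (X:1745096-1746217) went from 6, 6.75 and 8.05 CPM to at most 1 count, at least 82.9-fold lower (edgeR adjusted p = 1.46e-14), and C27C12.3 (X:14863609-14865844) from 7.01, 8.99 and 11.5 CPM to 0 to 3 counts, at least 111-fold lower (edgeR adjusted p = 6e-13). F02E8.4 (X:4454120-4457304) was the most abundant of these genes and went from 36.8, 50.1 and 59.5 CPM to 0, 0.0275 and 0.274 CPM, a log2 fold change of -9.46 ± 0.29 (edgeR adjusted p = 4.71e-14). All 5 were present in every library of the other 5 groups, with at least 55 counts. In the comparison with WT20 all 5 met the count rule through WT20 alone, so these falls and their p-values are given as a description. The first member along X, Y73B3A.1 (X:42632-46933), fell from 52.7, 56.6 and 60.2 CPM to 0.568, 1.04 and 1.19 CPM (-5.81 ± 0.13, edgeR adjusted p = 1.74e-15), and the last, H11L12.1 (X:17710285-17711698), from 6.10, 9.32 and 11.4 CPM to 0.284, 0.354 and 0.426 CPM (-4.55 ± 0.17, edgeR adjusted p = 5.33e-13).

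The rise was spread over the whole of X. Cut into 18 segments of 1 Mb by gene start, with 38 to 82 members each, every segment had a median log2 fold change above 0 in the libraries labelled ife-2, from 0.66 in segment 14 to 1.16 in segment 7, and between 61.9% and 86.3% of its tested members rose. On the other chromosomes, only 1 Mb segments with at least 20 tested genes were kept. Of these, the number with a median above 0 was 6 of 15 on II, 1 of 14 on III, 7 of 18 on IV and 20 of 21 on V. The highest segment median was 0.88 on V and at most 0.62 on II to IV, so 13 of 18 X segments lay above every kept segment of II to V. Falls were uneven along X. They made up 19.6% of the members tested in segment 1, 21.4% in segment 13, 19.1% in segment 14 and 19.3% in segment 15, and 1.52% in segment 7. The longest run of neighbouring members that all rose held 18 genes over 0.395 Mb, from C46C11.3 (X:4622324-4631841), at 5.32, 5.91 and 6.92 CPM in WT20 and 11.4, 12.5 and 15.2 CPM in the libraries labelled ife-2 (1.17 ± 0.09, edgeR adjusted p = 3.55e-09), to ZC449.8 (X:5016075-5017817), at 2.67, 2.98 and 3.52 CPM and 7.02, 7.65 and 9.85 CPM (1.53 ± 0.10, edgeR adjusted p = 8.93e-10). Their log2 fold changes ran from 0.49 to 1.94 with TMM scaling, and the run is given for that scaling alone. With library totals as the only scaling, the log2 fold changes of C46C11.3 and ZC449.8 were 0.64 and 1.00. As 72.5% of the tested members rose, long runs of rises can arise without any clustering, and clustering was not tested. Neighbouring here means next among the members, so X genes with a given name that lie between them are skipped. The longest run of falls held 8 neighbours at the left end, from Y73B3A.1 to Y73B3B.1 (X:209108-211241), which overlaps a gene on the other strand.

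**Figure D3:**
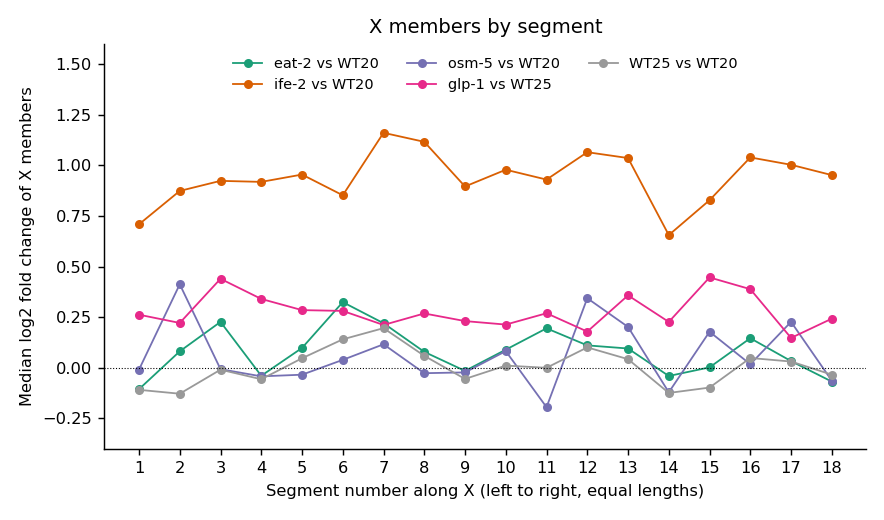
The horizontal axis numbers the 18 segments of X from left to right and the vertical axis gives the median log2 fold change of the X members in each, with 1 line per comparison. The line of the libraries labelled ife-2 stays between 0.66 and 1.16 and that of glp-1 between 0.15 and 0.45, while the other 3 cross 0.

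The gap between X and the other chromosomes was present at every level of expression and widest among abundant genes. When the genes were put into 4 classes by their mean level over all libraries, the median log2 fold changes of the X members in the libraries labelled ife-2 were 0.59, 0.95, 0.91 and 1.22 from the lowest to the highest class, and those of II to V were 0.23, 0.08, 0.03 and -0.41. In the highest class 187 of 208 X members rose and 8 fell, against 510 and 696 of 1305 genes of II to V. F46H5.3 (X:7230705-7238662), a homolog of arginine kinases, had more counts than any other member in every library but osm-5 replicate 3, and stood at 877 ± 40.9 CPM per kilobase (SD, n = 6) in WT20. It had 1215, 1276 and 1380 CPM in WT20 and 2847, 3273 and 4750 CPM in the libraries labelled ife-2 (1.52 ± 0.10, edgeR adjusted p = 1.15e-09), with no overlap. The next members by level in WT20 were short transcripts, ZC373.2 at 300.2 ± 45.9, ZK813.7 at 298 ± 41.6, F23A7.4 at 297 ± 30.6 and F22H10.3 at 297 ± 15.3 CPM per kilobase. They rose as well in the libraries labelled ife-2, with log2 fold changes of 1.30, 1.42, 1.11 and 1.04 (edgeR adjusted p = 2.74e-06, 2.97e-07, 3.21e-06 and 3.49e-06). With library totals as the only scaling these were 0.76, 0.88, 0.56 and 0.49, and that of F46H5.3 was 0.98.

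The libraries labelled glp-1 showed a smaller rise of X against WT25. Of 998 members tested, 233 (23.3%) rose and 37 (3.71%) fell, where 12% of all tested genes rose and 10.9% fell (edgeR, adjusted p below 0.01). On II to V, 10.4% of 4693 genes rose and 10.8% fell. The median log2 fold change was 0.27 on X and -0.02 on II to V, where the chromosomes ran from -0.10 on III to 0.09 on V. X genes with a given name had 335 rises and 51 falls among 1223 and a median of 0.28. All 18 segments had a median above 0, from 0.15 in segment 17 to 0.45 in segment 15, and the medians by class of level were 0.41, 0.23, 0.28 and 0.19 on X against 0.21, -0.02, -0.05 and -0.08 on II to V. With WT20 in place of WT25 as the control, 296 of 1011 rose and 30 fell, where 14.2% of all genes rose and 13.9% fell.

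Under the label glp-1, 2 of the 3 members that rose most, R193.1 and F16B12.7, were scarce in WT25. R193.1 (X:1154948-1155640) had no count in any WT25 or ife-2 library, at most 4 counts in any library of the remaining groups other than glp-1, and 34 to 92 counts in the libraries labelled glp-1 (0.737, 0.804 and 1.64 CPM), at least 14.6-fold higher than a floor of 3 counts per WT25 library. It met the count rule only through the libraries labelled glp-1, so its values are given as a description. F16B12.7 (X:14108545-14109714) went from 0.0715, 0.118 and 0.298 CPM in WT25 to 2.48, 2.86 and 3.21 CPM (4.15 ± 0.26, edgeR adjusted p = 1.35e-07). It had at most 1 count in the libraries labelled ife-2. F53H4.6 (X:15851951-15860606) went from 2.05, 2.73 and 3.80 CPM to 13.6, 32.4 and 46.8 CPM (3.46 ± 0.29, edgeR adjusted p = 1.89e-06), and overlaps another gene on the opposite strand, so reads of the 2 cannot be told apart without strand. In F16B12.7 and F53H4.6 the libraries labelled glp-1 lay above all others. The falls were led by F09C8.1 (X:16159648-16163524), which went from 5.31, 10.4 and 12.5 CPM to 0.920, 1.40 and 2.84 CPM (-2.54 ± 0.29, edgeR adjusted p = 2.64e-05), R01E6.5 (X:13537059-13538109), which overlaps a gene on the other strand, from 1.30, 2.32 and 2.98 CPM to 0.374, 0.533 and 1.03 CPM (-1.82 ± 0.28, edgeR adjusted p = 2.69e-04), and Y40C7B.4, from 0.500, 0.619 and 1.33 CPM to 0.133, 0.248 and 0.393 CPM (-1.54 ± 0.31, edgeR adjusted p = 0.00165). F09C8.1 and Y40C7B.4 had risen in the libraries labelled ife-2.

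The X members that rose under the label ife-2 and under the label glp-1 overlapped in part. These comparisons share no library. Among 974 members tested in both, 710 rose in the first, 222 rose in the second and 142 rose in both, which is 20.0% of the first list and 64.0% of the second. As 72.9% of all these members rose in the libraries labelled ife-2, the share of 64.0% lay below that background. In the other direction, 97 fell under the label ife-2 and 37 under the label glp-1, and 1 fell in both. Of the 97, 36 (37.1%) rose in the libraries labelled glp-1, where 22.8% of all members did, and 88 (90.7%) had a log2 fold change above 0 there. Their median log2 fold change in the libraries labelled glp-1 was 0.70, against 0.19 for the members that rose in those labelled ife-2 and 0.26 for all. On II to V the pattern was the other way. There, 2075 genes fell in the libraries labelled ife-2, of which 331 (16%) also fell and 102 (4.92%) rose in those labelled glp-1, and their median was -0.21. Of all 4617 genes of II to V tested in both, 10.9% fell and 10.2% rose in the libraries labelled glp-1, with a median of -0.02. Across genes, which are not independent replicates, the log2 fold changes of the 2 comparisons had a Pearson r of -0.34 and a Spearman rho of -0.45 on X (974 genes) and of 0.23 and 0.29 on II to V (4617 genes).

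**Figure D4:**
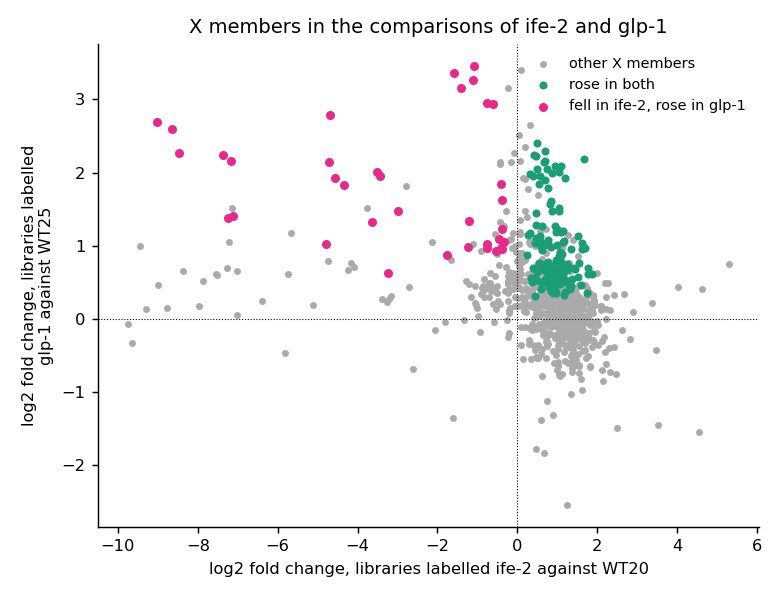
Each point is 1 of 974 X members, with its log2 fold change in the libraries labelled ife-2 against WT20 on the horizontal axis and in those labelled glp-1 against WT25 on the vertical axis. The 142 members that rose in both (green) lie just to the right of the vertical line at 0, and the 36 that fell in the first and rose in the second (pink) extend far to the left.

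C27C12.3, one of the 5 largest falls in the libraries labelled ife-2, had 2.88, 5.75 and 10.0 CPM in WT25 and 21.3, 37.2 and 64.6 CPM in the libraries labelled glp-1 (2.69 ± 0.35, edgeR adjusted p = 7.18e-05). H11L12.1, the last member along X, went from 5.36, 7.23 and 8.78 CPM to 16.6, 23.5 and 40.5 CPM (1.93 ± 0.24, edgeR adjusted p = 4.49e-05), and Y73B3B.1 from 0.221, 0.303 and 0.396 CPM to 0.406, 1.61 and 2.06 CPM (2.16 ± 0.36, edgeR adjusted p = 4.32e-04). In each of the 3 the libraries labelled glp-1 lay above WT25, and in each the libraries labelled ife-2 lay below WT20. The rest of the 5 largest falls were not called in the libraries labelled glp-1. K04C1.5 had a log2 fold change of -0.33, E02H4.6 of 0.14 and Y75D11A.3 of -0.07 in the libraries labelled glp-1 (edgeR adjusted p = 0.518, 0.707 and 0.887). F02E8.4 leaned upward as C27C12.3 did, at 0.998 ± 0.30 (edgeR adjusted p = 0.0186), but its libraries overlapped WT25. Looking through the 36 genes after their values were seen, 5 lay close together in the right part of X, C27C12.1, C27C12.3, F31F6.1, F31F6.2 and F31F6.3, with starts from 14852552 to 14871836. Their log2 fold changes were -1.58, -9.01, -8.65, -7.38 and -8.48 in the libraries labelled ife-2 and 3.37, 2.69, 2.60, 2.25 and 2.27 in those labelled glp-1. Their median levels in the libraries labelled glp-1 were 41.3, 37.2, 20.7, 16.6 and 10.1 CPM, against 4.29, 5.75, 3.16, 2.94 and 2.04 CPM in WT25.

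In WT25 against WT20, X members were called at about the rate of all genes. Of 980 tested, 128 (13.1%) rose and 94 (9.59%) fell, against 13% and 11% of all tested genes, and the median log2 fold change was 0.01 on X and 0.02 on II to V. With library totals as the only scaling, rises made up 22.2% of the called members in place of 57.7%. The largest rises were those of C09B8.4, which went from 0.524, 1.03 and 1.46 CPM in WT20 to 7.50, 9.01 and 11.3 CPM in WT25 (3.17 ± 0.20, edgeR adjusted p = 1.32e-07), Y40C7B.4, at 0.500, 0.619 and 1.33 CPM in WT25 (2.44 ± 0.39, edgeR adjusted p = 3.27e-04), and C45B2.3, from 0.125, 0.323 and 0.403 CPM to 0.896, 1.30 and 1.69 CPM (2.13 ± 0.26, edgeR adjusted p = 3.25e-05). None of the 3 overlapped between the wild types, which the choice of named genes required. The largest falls were those of K09C4.4, from 0.505, 0.622 and 0.824 CPM to 0, 0.103 and 0.229 CPM (-2.55 ± 0.37, edgeR adjusted p = 1.5e-04), B0416.2, from 0.371, 0.453 and 0.659 CPM to 0, 0.117 and 0.215 CPM (-2.16 ± 0.49, edgeR adjusted p = 0.00394), and C04A11.5, from 0.737, 0.847 and 1.01 CPM to 0.137, 0.238 and 0.251 CPM (-1.96 ± 0.17, edgeR adjusted p = 1.7e-06). These genes had at most 50 counts in any wild-type library, and the wild types did not overlap, which the choice of named genes again required. B0416.2 met the count rule of this comparison through WT20 alone, so its fall is given as a description.

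The libraries labelled eat-2 were close to WT20 on X. Of 990 members tested, 140 (14.1%) rose and 116 (11.7%) fell, against 18.4% and 12.8% of all tested genes (edgeR, adjusted p below 0.01), and the median log2 fold change was 0.09 on X and 0.04 on II to V. With library totals as the only scaling, rises made up 29.8% of the called members in place of 54.7%. The largest rises were those of C09B8.4, at 5.02, 7.65 and 10.2 CPM (2.90 ± 0.24, edgeR adjusted p = 1.88e-06), F21G4.3, which went from 0.359, 0.492 and 0.552 CPM to 0.944, 2.09 and 3.18 CPM (2.02 ± 0.26, edgeR adjusted p = 6.64e-05), and C45B2.2, from 5.07, 5.93 and 9.52 CPM to 11.1, 19.2 and 45.8 CPM (1.75 ± 0.30, edgeR adjusted p = 4.66e-04). In all 3 the libraries labelled eat-2 lay above WT20, which the choice of named genes required. The falls were led by B0416.2, with 1 to 3 counts per library against 18 to 33 in WT20, at least 6.96-fold lower at a floor of 3 counts per library (edgeR adjusted p = 1.79e-06), Y73B3B.1, from 0.785, 1.19 and 1.30 CPM to 0.079, 0.346 and 0.378 CPM (-1.92 ± 0.26, edgeR adjusted p = 1.06e-04), and K09C4.4, at 0.0629, 0.127 and 0.500 CPM (-1.79 ± 0.40, edgeR adjusted p = 0.00277). All 3 leading falls were of scarce transcripts. B0416.2 met the count rule of this comparison through WT20 alone, so its values are given as a description. C09B8.4, B0416.2 and K09C4.4 were thus among the leading members both in this comparison and in that of WT25 with WT20, which share the WT20 libraries. C45B2.2 and Y73B3B.1 were also called in the same direction in WT25, at 2.06 and -1.90 (edgeR adjusted p = 2.1e-06 and 4.34e-06). F21G4.3 was not called there, at 1.88 (edgeR adjusted p = 0.0168).

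In the libraries labelled osm-5, 77 of 981 members rose (7.85%) and 130 fell (13.3%), against 7.01% and 10.9% of all tested genes (edgeR, adjusted p below 0.01). The median log2 fold change was 0.03 on X and 0.17 on II to V. Without replicate 3 the counts were 180 rises (18.5%) and 264 falls (27.1%) of 974, against 21.4% and 23.6% of all genes, and the medians were -0.08 and 0.00. Without WT20 replicate 3, 48 rose. With library totals as the only scaling, rises made up 15.9% of the called members, and with upper-quartile scaling 26.2%, in place of 37.2%. C45B2.3 had 1.30, 1.53 and 85.1 CPM against 0.125, 0.323 and 0.403 CPM in WT20, and T24D3.2 7.73, 8.14 and 342 CPM against 1.59, 1.75 and 2.23 CPM. Replicate 3 gave the highest value in both. Their log2 fold changes of 5.87 and 5.29 (edgeR adjusted p = 0.00913 and 0.00803) went to 2.37 and 2.18 without it (edgeR adjusted p = 1.36e-06 and 5.59e-10), so both genes rose with and without that library, by different amounts. Neither was called when any of the WT20 libraries was left out with replicate 3 kept. ZK402.2 went from 0.144, 0.230 and 0.274 CPM to 0.995, 1.55 and 4.36 CPM (3.21 ± 0.40, edgeR adjusted p = 1.21e-04). The falls did not rest on replicate 3. F49E10.2 (X:5890380-5894757), which overlaps a gene on the other strand, went from 6.49, 9.67 and 11.1 CPM to 0, 0.365 and 0.832 CPM (-4.28 ± 0.52, edgeR adjusted p = 9.75e-05), H42K12.3 (X:1311391-1316640) from 27.9, 45.6 and 63.1 CPM to 0.331, 2.73 and 4.70 CPM (-3.92 ± 0.47, edgeR adjusted p = 8.17e-05), and R01E6.2 (X:13565486-13566536) from 1.38, 2.08 and 2.95 CPM to 0, 0.126 and 0.344 CPM (-3.65 ± 0.46, edgeR adjusted p = 1.25e-04). Tissue markers also moved in these libraries. Of 5 epidermis genes, dpy-7, rol-6 and wrt-2 fell and col-19 rose (edgeR), with a median log2 fold change of -3.57, and of 6 yolk genes vit-1, vit-3 and vit-4 rose, with a median of 1.33. In each of the 4 library scalings tried 3 epidermis genes fell and 3 yolk genes rose, and the rise of col-19 was not called with library totals or upper-quartile scaling. Of the 20 sperm genes msp-40, ssp-10 and ssp-16 rose and of 7 neuron genes egl-3 fell, where none of either list was called with library totals, and no germ line, muscle, pharynx or intestine gene was called. The part of these tissues in the X members' levels was not tested. F49E10.2, H42K12.3 and R01E6.2 were uneven within WT25, where H42K12.3 ran from 3.22 to 86.4 CPM, F49E10.2 from 0.830 to 17.5 CPM and R01E6.2 from 0.453 to 3.71 CPM.

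**Figure D5:**
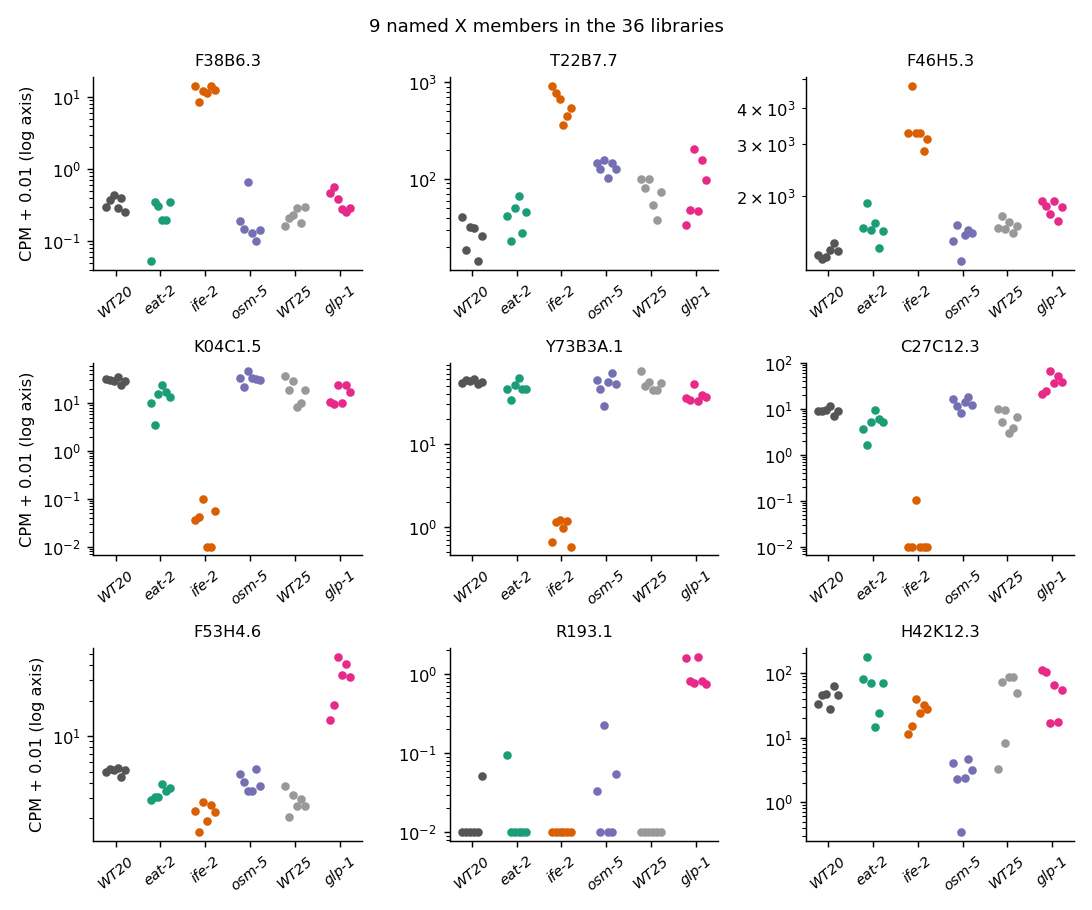
Each panel shows the normalised CPM, plus 0.01, of 1 X member on a logarithmic axis, with 1 point per library and the 6 labels along the horizontal axis. F38B6.3, T22B7.7 and F46H5.3 are highest in the libraries labelled ife-2, K04C1.5, Y73B3A.1 and C27C12.3 lowest there, F53H4.6 and R193.1 highest in those labelled glp-1, and H42K12.3 lowest in those labelled osm-5.

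Over the 6 groups together, 944 of the 1063 members (88.8%) differed between groups (edgeR F test, adjusted p below 0.01), against 91.8% of all genes and 91.6% of the sequence-named genes of II to V. The direction separated X from the rest. All 6 libraries labelled ife-2 lay above the 30 others for 236 members (22.2%), where 14.7% of all genes and 11.1% of those of II to V did so, and they lay below the 30 others for 55 members (5.17%), against 31% and 35.2%. The libraries labelled glp-1 lay above all others for 56 members (5.27%), against 1.35% of all genes and 0.702% of II to V. Those labelled osm-5 lay below all others for 46 members (4.33%), against 3.59% and 2.81%, and for 66 members (6.21%) without replicate 3, against 4.42% and 3.91%. No member was above all others in the libraries labelled eat-2 or osm-5 or in WT25, where 0.0115%, 0.349% and 0.0115% of all genes were.

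Matching counts over all genes are not given, so the following counts do not tell X from the other chromosomes. Of the 1063 members, 117 were called in none of the 5 comparisons, 432 in 1, 283 in 2, 156 in 3, 65 in 4 and 10 in all 5. Among these 10, C05G5.1, M03B6.1, C09B8.4, F35C8.5, K09E2.3 and R160.3 rose under the labels eat-2, osm-5 and ife-2 and in WT25 against WT20, and fell in those labelled glp-1 against WT25. K09E2.3, for example, had log2 fold changes of 0.72, 0.60, 1.81, 1.00 and -0.65 in that order (edgeR adjusted p = 6.22e-08, 0.00213, 1.39e-12, 6.61e-08 and 8.48e-05). The 4 comparisons with WT20 share its libraries, and the last shares WT25 with the one before it. C27C12.1 and T20F7.1 fell under the labels eat-2 and ife-2 and in WT25, and rose in those labelled osm-5 and glp-1, AC8.4 rose in the libraries labelled ife-2 and glp-1 and fell in the other 3 comparisons, and W04G3.5 rose in all 5. At the other end, the members with the smallest range of group means were ZC13.1, F17H10.1 and M79.2. ZC13.1 (X:877239-879884) ran from 3.53 to 9.40 CPM over all libraries, and its group medians from 5.46 CPM in WT25 to 7.61 CPM in the libraries labelled glp-1. F17H10.1 had a log2 fold change of 0.20 ± 0.09 in the libraries labelled ife-2 (edgeR adjusted p = 0.0571). M79.2 rose there by 0.57 ± 0.08 (edgeR adjusted p = 4.75e-06), from 13.8, 14.5 and 15.5 CPM to 17.1, 19.2 and 23.7 CPM with TMM scaling. With library totals as the only scaling its log2 fold change was 0.05 ± 0.10 (edgeR adjusted p = 0.642), and those of ZC13.1 and F17H10.1 were -0.48 and -0.33 (edgeR adjusted p = 6.42e-05 and 0.0031).

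Genes of X regulation, X counting and X pairing were listed apart from the members. Of 11 genes for germ line X chromatin and X pairing, all fell in the libraries labelled ife-2 (edgeR), among them mes-2, mes-3 and mes-6, which form a complex that methylates lysine 27 of histone H3, mes-4, which methylates lysine 36, and him-8, which pairs the X chromosomes in meiosis. Their median log2 fold change was -2.73, against 0.17 over all genes, and their summed level was 99.7 to 131.4 CPM against 724 to 919 CPM in WT20. In the libraries labelled glp-1 mes-3 rose and xnd-1 fell, the summed level of 616 to 903 CPM overlapped that of WT25 at 604 to 932 CPM, and neither call held under every library scaling. Of 12 genes of dosage compensation and X counting, 7 fell in the libraries labelled ife-2, where 40.9% of all tested genes fell. The falls were those of capg-1, dpy-21, dpy-26, dpy-28, mix-1, sdc-1 and sex-1. The gene sdc-2, which brings the complex to X, rose. The other listed genes, dpy-27, dpy-30, sdc-3 and xol-1, were not called, with log2 fold changes of 0.07, -0.24, -0.13 and -0.46. With library totals as the only scaling 10 fell and none, sdc-2 included, rose. With upper-quartile scaling 6 fell and 2 rose. The median of the 12 genes was -0.73 with TMM scaling, and their summed level was 221.6 to 301.7 CPM against 681 to 785 CPM in WT20. In the libraries labelled glp-1, dpy-27, sdc-1, sdc-3 and xol-1 rose and none fell, with a median of 0.28 against 0.02 over all genes, although 1 fell with upper-quartile scaling.

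Markers of several somatic tissues moved with the X members in the libraries labelled ife-2, and those of the epidermis were divided. The 5 body wall muscle genes, 5 intestine genes and 6 yolk genes all rose there (edgeR), with median log2 fold changes of 1.14, 1.29 and 2.26, and they rose under each of the 4 library scalings tried. Over all tested genes, 44.1% rose and 40.9% fell there with TMM scaling. The 5 pharynx and 7 neuron genes rose too, with medians of 0.74 and 0.86, but with library totals as the only scaling 2 and 5 of them were called and the lowest log2 fold changes of the lists were -0.055 and -0.10. Of 5 epidermis genes col-19 and elt-3 rose and dpy-7 and wrt-2 fell, with a median of -0.04, and 1 of these falls was not called with upper-quartile scaling. All 20 sperm genes fell there, at 17.8 to 24.7 CPM in sum against 1009 to 1296 CPM in WT20. In the libraries labelled glp-1, 11 of the 20 sperm genes fell (5 with library totals) and none rose, and no muscle, yolk or epidermis gene was called. The intestine gene ges-1 and the neuron gene snb-1 rose, and act-5 and vha-6 of the intestine and tnc-2 of the pharynx fell. Of these calls that of tnc-2 was lost with library totals, and of the 5 intestine genes 1 fell with library totals and 1 with upper-quartile scaling, where none rose. In the libraries labelled eat-2 all 5 muscle genes, 2 intestine genes, 1 pharynx gene and 5 sperm genes rose and 1 neuron and 1 yolk gene fell, and in WT25 against WT20 3 muscle, 3 yolk, 2 intestine, 1 pharynx and 9 sperm genes rose and 2 neuron genes fell. With library totals, 2 muscle genes and no sperm gene rose in the first of these comparisons, and no muscle gene and 1 sperm gene in the second. The part of these tissues in the levels of the X members was not tested.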

How the data were processed

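Whole-worm polyA RNA libraries (36, in 6 labelled groups of 6) were analysed. The authors deposited 1 table of whole-number gene counts, which per the study's methods came from cutadapt, STAR, Salmon and tximport on WBcel235 (Ensembl release 90). Counts were not normalised. The 3 flowcells each held all samples. Coordinates, strand and exon lengths were taken from Ensembl release 115 on the same build, which matched 45842 of 46093 gene identifiers. Strand was not used in telling overlapping genes apart, and 247 members overlap an exon of a gene on the other strand and 60 on the same strand.

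Each comparison was fitted in its own 12 libraries with edgeR 4.0.16 (TMM scaling, glmQLFit and glmQLFTest, genes reaching 10 counts in 6 of the 12 libraries), with Benjamini-Hochberg adjustment over all tested genes and a threshold of 0.01. SE is the log2 fold change divided by the square root of F. CPM use TMM factors over 36 libraries. DESeq2 1.42.0, other scalings, no filter, all 36 libraries in one fit, a replicate block, the other wild type as control, other thresholds and leaving out each library were tried. The fits were tested on simulated counts in which few genes changed, in both directions. That test does not cover a comparison such as ife-2 against WT20, where most genes were called. Named genes were the 5 largest rises and falls in ife-2 and 3 in each other comparison among called members with non-overlapping groups and a mean of 10 counts, the 5 of highest level, the 3 of smallest range among those with 100 counts, the first and last along X and the ends of the longest run. The members, lists and rules were chosen with earlier results of these data known. Intervals of counting error are not given, since the spread between libraries covers it.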

Additional observations from a re-analysis of the deposited data

Results flagged for a closer look

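Within groups of 6 libraries, 14 of 73 values tested had a library far from the other 5 by Dixon's test, where chance alone gives about 1 in 20, and 5 of the 14 were osm-5 replicate 3. That library had the log2 X to II to V ratio of -1.36, an X share of 27.9% of the counts of the X members and II to V genes together, C45B2.3 at 85.1 CPM, T24D3.2 at 342 CPM and ZK402.2 at 4.36 CPM, each away from the other libraries labelled osm-5. The X share also stood apart in WT20 replicate 5 at 14.5% and in eat-2 replicate 2 at 15.7%. The same libraries had the highest C45B2.2 levels of their groups, 9.52 CPM and 45.8 CPM. F38B6.6 was low in WT20 replicate 4 at 1.20 CPM and in ife-2 replicate 2 at 15.6 CPM. F02E8.4 stood at 0.274 CPM in ife-2 replicate 3, F09C8.1 at 2.84 CPM in glp-1 replicate 5, and C04A11.5 at 0.137 CPM in WT25 replicate 4, the lowest of its group.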

How the results depend on the processing

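Of 310 alternative values for the main results, 269 kept their direction and lay within the spread or within 1.5 times the count, and of 611 for the named genes 587 kept their call, 24 lost it and none turned. The gap between the X and II to V medians stayed within 0.56 to 1.00 for ife-2 and 0.26 to 0.32 for glp-1 over 20 settings each, lay below 0.6 for ife-2 in the 6 fits without 1 WT20 library, which tested fewer genes, and turned sign only for WT25 (-0.05 to 0.03). With library totals, rises and falls of X members were 71 (rises) for eat-2, 150 (falls) for ife-2, 22 (rises) for osm-5, 15 (falls) for glp-1, and 50 and 175 for WT25. Upper-quartile scaling gave 49 rises for osm-5. All 36 libraries in one fit gave 57 and 47 for eat-2, 211 and 196 for osm-5, and 62 and 58 for WT25. WT25 as the control gave 52 falls for ife-2. An adjusted p below 0.05 gave 252 and 193 for eat-2, 179 rises for osm-5, 68 falls for glp-1 and 167 falls for WT25. A fold of at least 2 gave 23 and 30 for eat-2, 474 rises for ife-2, 28 and 84 for osm-5, 118 and 10 for glp-1, and 16 and 24 for WT25. The difference in the log2 X to II to V ratio turned to 0.035 for eat-2 and 0.023 for WT25 with the mean of log2 levels, and was 1.57 for ife-2, 0.31 for glp-1 and -0.075 for WT25 with levels not divided by length. The cause of these changes was not tested.

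Leaving out 1 library at a time gave 112 to 178 rises and 83 to 149 falls for eat-2, 623 to 721 and 77 to 101 for ife-2, 48 to 180 and 95 to 264 for osm-5, 187 to 221 and 25 to 40 for glp-1, and 91 to 154 and 65 to 109 for WT25. The lowest osm-5 count of rises came without WT20 replicate 3 and the highest counts without osm-5 replicate 3.

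The replicate numbers did not pair the libraries, as the correlations of same-numbered deviations ran from -0.58 to 0.50. A replicate block gave 34 and 75 for osm-5, 17 falls for glp-1, and 76 and 60 for WT25.

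R193.1 had at most 92 counts in any library, which limits the precision of its fold change.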
